A study of Mus musculus with 8 samples.

Results

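The SOX genes encode transcription factors that bind DNA through a high mobility group box related to that of Sry. The 10 genes described here (Sox2, Sox4, Sox5, Sox6, Sox7, Sox9, Sox11, Sox13, Sox17 and Sox18) were taken by name as the SOX factors with known roles in endothelium and epithelium. All 10 were found among the 27179 genes of the count table. RNA was measured in 8 libraries of cells sorted from mouse lungs, 4 of the QZ1-hi and 4 of the QZ1-lo population. Both populations came from female C57BL/6J mice (C57BL/6 in the labels), 11 to 12 weeks after tumor induction. Their age is taken as 18 to 22 weeks, which the study prints for healthy controls matched to them in age. The labels give the genotype as Eml4-Alk translocation, and the study's methods describe a rearrangement of the Eml4 and Alk genes made in the lung by an adenovirus with Cas9 and guide RNAs. All mice had received 4.5 nmol of QZ1-(PEG2K), a quenched Cy5 probe that lights up when a protease cuts its S1 linker, 2 h before the lungs were excised. Viable cells without CD45 and CD11b on their surface were then separated by probe signal plotted against EpCAM, with at least 100000 cells per population. The samples analysed here include no healthy lung and no lung without the probe, so each population was compared only with the other, to ask which genes differ between cells with high and low probe signal.

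SOX factors rarely act alone: they bend DNA at short AT-rich sites and act with partner factors, such as ETS proteins in endothelium. They fall into groups by sequence. The SoxF genes Sox7, Sox17 and Sox18 are known from endothelium, where Sox17 is tied to arterial fate and Sox18 to lymphatic fate through Prox1. In lung epithelium, the SoxB1 gene Sox2 marks the conducting airway and the SoxE gene Sox9 the distal tips of the growing lung. The SoxC genes Sox4 and Sox11 are known from progenitors and tumors, and the SoxD genes Sox5, Sox6 and Sox13 encode factors without an activation domain of their own.

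The promoters of 3 genes are shown as examples, each from a group that differed between the populations. Each promoter holds both a SOX and an ETS motif outside the exons that GENCODE annotates for its gene. They are the 250 bases before the RefSeq start of Sox2 (chr3:34649745-34649994, plus strand), of Tek, the angiopoietin receptor gene and a listed SoxF target (chr4:94739039-94739288, plus strand), and of Nkx2-1, the lineage factor of lung epithelium (chr12:56536909-56537158, minus strand). The sequences are from RefSeq on GRCm38.p6 and are written 5′ to 3′ on the strand of the gene. Capitals mark the SOX motifs AACAAT and ACAAAG and the ETS motifs CCGGAA and CAGGAA, on either strand.
Sox2: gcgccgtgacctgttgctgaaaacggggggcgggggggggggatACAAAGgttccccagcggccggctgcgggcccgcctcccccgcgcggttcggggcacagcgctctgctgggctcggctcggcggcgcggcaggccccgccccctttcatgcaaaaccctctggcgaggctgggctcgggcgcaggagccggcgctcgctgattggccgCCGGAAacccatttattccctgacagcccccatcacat
Tek: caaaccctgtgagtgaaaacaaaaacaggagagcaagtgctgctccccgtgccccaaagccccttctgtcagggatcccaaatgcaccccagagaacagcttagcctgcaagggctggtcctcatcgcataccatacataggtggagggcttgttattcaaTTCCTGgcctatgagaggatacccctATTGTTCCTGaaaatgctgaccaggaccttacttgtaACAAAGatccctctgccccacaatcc
Nkx2-1: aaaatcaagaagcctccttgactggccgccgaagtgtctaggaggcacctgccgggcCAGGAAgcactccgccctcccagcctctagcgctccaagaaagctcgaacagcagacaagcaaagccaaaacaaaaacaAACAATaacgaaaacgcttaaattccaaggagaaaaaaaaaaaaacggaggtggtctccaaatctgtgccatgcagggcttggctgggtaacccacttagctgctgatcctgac
In Sox2, ACAAAG lies at -206 to -201 and CCGGAA at -38 to -33 from the start. In Tek, AACAAT on the opposite strand at -63 to -58 overlaps CAGGAA on the opposite strand at -59 to -54, and a further ACAAAG lies at -26 to -21 and a further CAGGAA at -89 to -84. In Nkx2-1, CAGGAA lies at -193 to -188 and AACAAT at -114 to -109. These motifs are short and common: a SOX motif occurs in 24.0% and an ETS motif in 35.1% of 32851 RefSeq promoters of the same length. A match describes these letters only, and binding was not measured. Of the 10 members, 6 had an entry in the promoter table, of which 2 held a SOX and 3 an ETS motif. Of the 9 SoxF targets, 7 had an entry, of which 2 held a SOX and 3 an ETS motif. Of 10 endothelial partner factors, 8 had an entry, of which 3 held a SOX and 2 an ETS motif. Promoters of Erg and Sox6 also held both motifs. Of 7 epithelial partner factors, 4 had an entry, of which 3 held a SOX and 3 an ETS motif. These counts are per gene, some with several promoters, while the percentages are per promoter. Sox7, Sox9, Sox17 and Sox18 had no entry.

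Total counts per library ranged from 18380918 to 26847938, and mitochondrial ribosomal RNA took up 39.5% to 58.4% of them in QZ1-hi and 30.2% to 47.3% in QZ1-lo. Levels are given as CPM (counts scaled to a common library size) after TMM scaling, log2 fold changes compare QZ1-hi with QZ1-lo, and a change was called when edgeR's quasi-likelihood test gave a Benjamini-Hochberg adjusted p under 0.05 over all 15583 genes tested. Markers of endothelium were higher in QZ1-hi (10 of 10 called), and so were markers of fibroblasts (7 of 8) and mesothelium (4 of 4). The mesothelial sum was 268 CPM in QZ1-hi replicate 2 and 38.4 to 66.1 CPM in the other QZ1-hi libraries. Of 5 pericyte markers, only Pdgfrb was called, higher in QZ1-hi. Of 5 smooth muscle markers, Myh11 and Des were called higher and Cnn1 lower. Markers of ciliated (6 of 6) and club cells (5 of 5) were lower, as were 5 of 6 markers of alveolar type 1 cells, with Pdpn higher. Epithelium was not lower throughout: of 6 alveolar type 2 markers, Sftpc and Slc34a2 were called higher (both calls lost with scaling by library size only) and none lower, and their summed level was 6181 to 11380 CPM in QZ1-hi and 4536 to 7152 CPM in QZ1-lo. The sort was meant to remove hematopoietic cells, yet Ptprc, which encodes CD45, was present at 71.4 to 222 CPM in QZ1-hi and 93.4 to 161 CPM in QZ1-lo, with none of 6 immune markers called. In bulk RNA, fewer cells of a type and less RNA per cell cannot be told apart.

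Of the 10 SOX genes, 4 were higher in QZ1-hi (Sox7, Sox13, Sox17 and Sox18), 1 was lower (Sox2) and 5 did not pass the test. Across all genes tested, 18.1% were called, 9.88% higher and 8.21% lower. The libraries of the populations did not overlap for 6 of the 10 SOX genes, against 22.6% of all genes. The median log2 fold change was 1.10 over the 10 members and 0.02 over all genes tested. All 10 passed the filter on low counts. These counts describe the members, which were named with earlier results of these data known.

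**Figure D1:**
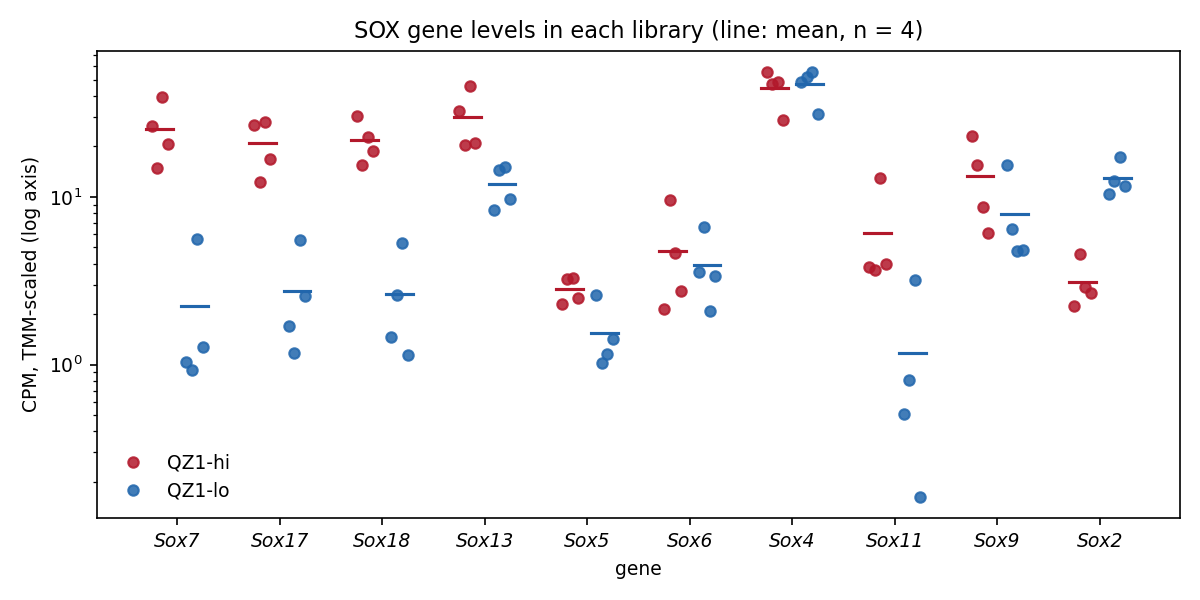
Level of each of the 10 SOX genes in each library, as TMM-scaled CPM on a log axis. Red points are QZ1-hi and blue points QZ1-lo libraries (4 each), and the line is the mean. The SoxF genes Sox7, Sox17 and Sox18 lie above every QZ1-lo library in all 4 QZ1-hi libraries, Sox2 lies below, and the points of Sox4 coincide near 45 to 47 CPM on average.

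Among the SoxF genes, all 3 were higher in QZ1-hi. Sox7, a regulator of vessel formation (chr14:63943673-63950732, plus strand), measured 26.4, 14.8, 39.5 and 20.7 CPM in QZ1-hi replicates 1 to 4 and 1.04, 0.936, 5.65 and 1.27 CPM in QZ1-lo replicates 1 to 4. The populations did not overlap, and QZ1-lo replicate 3 stood above the other QZ1-lo libraries. The means were 25.4 ± 10.6 and 2.22 ± 2.29 CPM (SD, n = 4 each), an 11.4-fold difference in the fit (log2 fold change 3.51, SE 0.57, edgeR adjusted p = 0.00164). Sox7 ranked 145 from the top of all genes tested by log2 fold change, the highest of the 10 members.

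Sox17 is needed for arterial identity and lies on the minus strand at chr1:4490931-4497354. It measured 26.8, 12.3, 28.1 and 16.8 CPM in the QZ1-hi libraries and 1.70, 1.18, 5.50 and 2.58 CPM in the QZ1-lo libraries. The lowest QZ1-hi library was thus above the highest QZ1-lo library, again replicate 3. The means were 21.01 ± 7.66 and 2.74 ± 1.93 CPM (SD, n = 4 each), with a log2 fold change of 2.94 (SE 0.45, edgeR adjusted p = 0.00122). An unnamed transcript on the opposite strand, Gm37587, overlaps 16.8% of the exon length of Sox17. Whether the counting used strand is not given in the sources used here, so reads of the overlapping genes cannot be told apart.

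Sox18, whose loss disturbs lymphatic and vessel development (chr2:181669836-181671640, minus strand), measured 30.3, 15.5, 22.9 and 18.8 CPM in QZ1-hi and 1.46, 2.60, 5.32 and 1.15 CPM in QZ1-lo. The pattern was that of the other SoxF genes, with no overlap and with QZ1-lo replicate 3 the highest of its population. The means were 21.8 ± 6.38 and 2.63 ± 1.90 CPM (SD, n = 4 each), and the log2 fold change was 3.05 (SE 0.44, edgeR adjusted p = 0.000863).

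QZ1-lo replicate 3 also had the highest summed level of the 10 endothelial markers in its population, at 291 CPM. The other libraries of QZ1-lo lay between 71.0 and 119 CPM and those of QZ1-hi between 793 and 1957 CPM. The 3 SoxF genes together came to 16.5 CPM in this library and to 4.20, 4.72 and 4.99 CPM in the other QZ1-lo libraries, and to 42.6 to 90.5 CPM in QZ1-hi. Without QZ1-lo replicate 3, the log2 fold changes were 4.55 for Sox7, 3.53 for Sox17 and 3.66 for Sox18, and all 3 calls held. The part of endothelial content in the SoxF differences was not tested.

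Cdh5, the gene of VE-cadherin and a listed SoxF target, served as the endothelial reference. It measured 395, 230, 575 and 213 CPM in QZ1-hi and 20.1, 24.6, 64.2 and 12.9 CPM in QZ1-lo, and its log2 fold change was 3.54 (SE 0.50, edgeR adjusted p = 0.000837). Each SoxF gene was divided by Cdh5 within a library, a measure that does not depend on how libraries are scaled. The log2 ratio of Sox7 to Cdh5 averaged -3.77 in QZ1-hi and -3.94 in QZ1-lo, a difference of 0.17 (SE 0.35, exact two-sided permutation test, p = 0.714). For Sox17 the difference was -0.59 (SE 0.45, exact permutation p = 0.257) and for Sox18 it was -0.43 (SE 0.27, exact permutation p = 0.171). None of these 3 ratios passed the test, which does not show that they were equal. Of the 70 assignments of 8 libraries, the smallest p that can be reached is 0.0286, and p-values were adjusted over the 9 ratios tested. An adjusted p under 0.05 was possible only if most of the 9 ratios had that smallest p. A ratio that did not pass after adjustment therefore decides little.

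The balance among the SoxF genes had a wider spread in QZ1-lo, where each gene had 23 to 156 counts per library, than in QZ1-hi, and the difference in spread was not tested. Sox7 took up 31.7% to 43.7% of the summed SoxF level in QZ1-hi and 19.8% to 34.3% in QZ1-lo. Its log2 ratio to Sox17 was -0.02, 0.26, 0.49 and 0.30 in QZ1-hi and -0.70, -0.33, 0.04 and -1.01 in QZ1-lo, so that the populations overlapped in 1 library of each. The difference was 0.76 (SE 0.25, exact permutation p = 0.0571, adjusted p = 0.129). The ratios of Sox18 to Sox17 and of Sox18 to Sox7 differed by 0.16 (SE 0.49, exact permutation p = 0.714) and by -0.59 (SE 0.43, exact permutation p = 0.257).

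**Figure D2:**
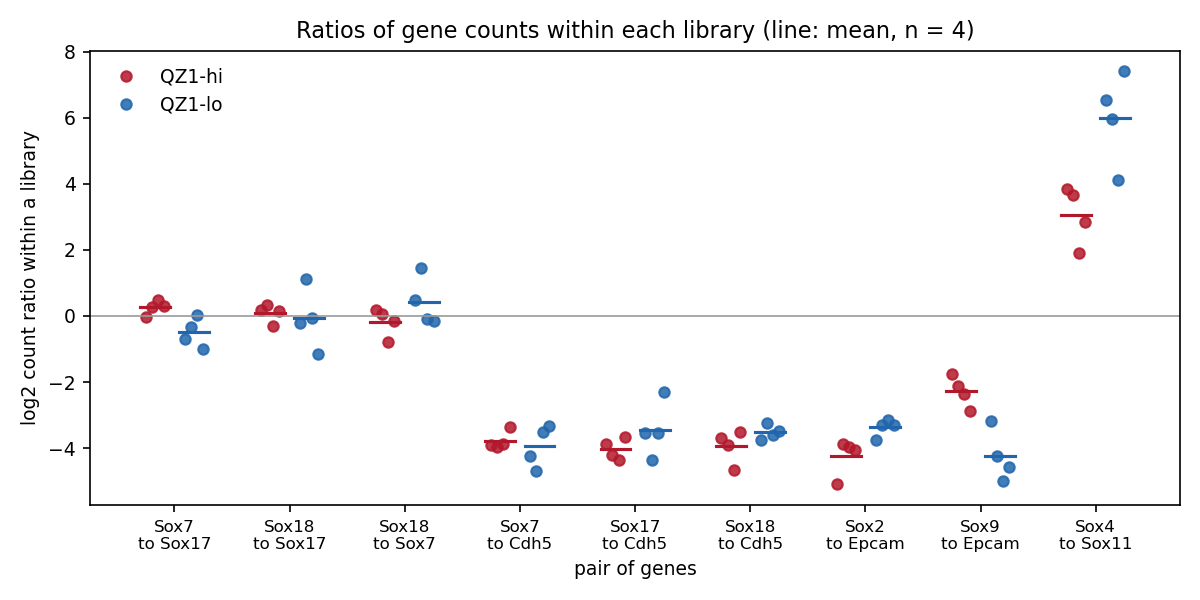
Log2 ratio of the counts of a pair of genes within each library, for the 9 pairs tested. Red points are QZ1-hi and blue points QZ1-lo libraries (4 each), and the line is the mean. The ratios of the SoxF genes to each other and to Cdh5 overlap between the populations, while those of Sox2 to Epcam, Sox9 to Epcam and Sox4 to Sox11 do not.

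Genes that work with SoxF factors were mostly higher in QZ1-hi as well. Of 10 endothelial partner factors, 7 were called higher, none lower and 3 did not pass, with a median log2 fold change of 1.66. The ETS factor gene Erg, which maintains endothelial identity, averaged 40.2 ± 11.1 CPM in QZ1-hi and 4.14 ± 3.67 CPM in QZ1-lo (SD, n = 4 each). Gata2 (log2 fold change 3.29), Tal1 (2.83) and Mef2c (2.58) were close to the SoxF genes in size of change. The values of Fli1 (1.10), Ets1 (1.17) and Nr2f2 (1.05) were lower, and their calls were lost with scaling by library size only. Rbpj, the DNA-binding partner of Notch, measured 21.4 ± 2.36 and 17.6 ± 2.64 CPM (log2 fold change 0.28, edgeR adjusted p = 0.282), and its value was -0.17 with scaling by library size only.

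Of 9 genes listed as SoxF targets, 8 were higher in QZ1-hi and none lower, with a median log2 fold change of 2.54. The lists share genes, so their counts are not separate observations. The targets Cdh5, Cldn5 and Kdr and the partner factor Erg are also endothelial markers. Nr2f2 is also a venous, Efnb2 an arterial and Prox1 a lymphatic marker. Tek rose from 7.33 ± 3.97 CPM in QZ1-lo to 102 ± 42.8 CPM in QZ1-hi (SD, n = 4 each, log2 fold change 3.79, SE 0.43). The Notch ligand gene Dll4 (log2 fold change 3.29), the tight junction gene Cldn5 (3.49) and the VEGF receptor gene Kdr (2.54) rose by comparable amounts, and Vcam1 (1.66), Efnb2 (1.48) and Notch1 (0.72, a call lost with scaling by library size only) by less. Prox1, the lymphatic regulator downstream of Sox18, measured 4.91 ± 2.29 CPM in QZ1-hi and 1.45 ± 1.38 CPM in QZ1-lo and did not pass (log2 fold change 1.76, SE 0.66, edgeR adjusted p = 0.0946). Its fellow lymphatic markers Lyve1, Flt4, Mmrn1 and Ccl21a were all called higher. Of 6 arterial markers, 3 were called higher (Gja4, Hey1 and Efnb2), and of 5 tested venous markers, all 5 were.

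The tested genes with the pattern most like that of the SoxF genes were found by the smallest Euclidean distance between mean-centred log2 CPM over the 8 libraries. For Sox7 they were Shank3 (distance 0.71), Ccdc85a (0.87) and Flt4 (0.92). For Sox17 they were Shank3 (0.79), Nos3 (0.85) and Eng (0.88), and for Sox18 Prex2 (0.60), Disp2 (0.65) and Fgd5 (0.68). The distances are descriptions over 8 libraries that include the difference between the populations itself.

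**Figure D3:**
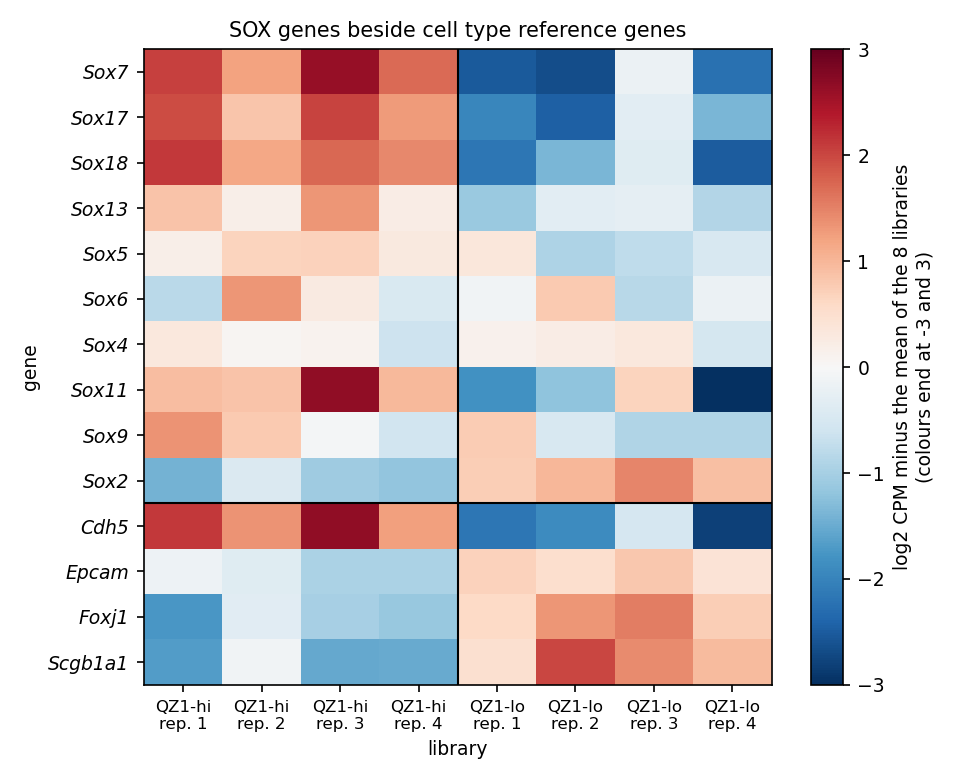
Log2 CPM of the 10 SOX genes and 4 reference genes in each library, minus the mean over the 8 libraries, with red above and blue below that mean. The SoxF genes and Cdh5 are red in the 4 QZ1-hi libraries and blue in QZ1-lo, palest in replicate 3, while Sox2 has the opposite colours, like the epithelial gene Epcam, the ciliated cell gene Foxj1 and the club cell gene Scgb1a1.

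Sox2 was the only member that was lower in QZ1-hi. Its single GENCODE exon lies at chr3:34650405-34652461 on the plus strand. The promoter printed above ends at chr3:34649994, because its RefSeq start lies upstream of the GENCODE start. Sox2 measured 2.25, 4.59, 2.89 and 2.68 CPM in QZ1-hi and 10.5, 12.4, 17.3 and 11.6 CPM in QZ1-lo. Every QZ1-lo library was above every QZ1-hi library, by at least the gap from 4.59 to 10.5 CPM. The means were 3.10 ± 1.03 and 12.96 ± 3.02 CPM (SD, n = 4 each), and Sox2 was 4.17-fold lower in QZ1-hi (log2 fold change -2.06, SE 0.28, edgeR adjusted p = 0.00062). It ranked 293 from the bottom of the 15583 genes.

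Airway genes fell with Sox2. The 3 genes nearest to it in pattern were AU040972 (distance 0.42), Cdhr4 (0.44) and Cep126 (0.45). Among airway markers, the ciliated cell factor gene Foxj1 (log2 fold change -2.07) and the club cell secretory genes Scgb1a1 (-2.38) and Scgb3a2 (-2.35) changed by amounts like that of Sox2. The summed level of the 6 ciliated markers was 60.2 to 149 CPM in QZ1-hi and 227 to 483 CPM in QZ1-lo, and that of the 5 club markers was 372 to 1062 CPM and 1648 to 4212 CPM. None of the 3 tested basal cell markers was called.

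Sox2 was also set against the general epithelial gene Epcam. The sort plotted probe signal against the EpCAM protein, and the study gives cutoffs for probe signal only. Whether the gates also depended on EpCAM is not stated. The log2 fold change of Epcam itself (-1.17) is therefore not read as a finding here, and each ratio to Epcam carries it. The level of Epcam was 77.4, 67.3, 45.2 and 45.1 CPM in QZ1-hi and 140, 122, 153 and 115 CPM in QZ1-lo. The log2 ratio of Sox2 to Epcam was -5.09, -3.87, -3.95 and -4.06 in QZ1-hi and -3.74, -3.29, -3.14 and -3.30 in QZ1-lo. The populations did not overlap and the difference was -0.87 (SE 0.31, exact permutation p = 0.0286, the smallest that 4 against 4 can give). After adjustment over the 9 ratios it did not pass (adjusted p = 0.0857). Passing was possible only if most ratios had that smallest p.

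All 7 epithelial partner factors fell in QZ1-hi, with a median log2 fold change of -0.99. The lineage factor gene Nkx2-1, whose promoter is printed above, averaged 57.1 ± 14.8 CPM in QZ1-hi and 106 ± 13.9 CPM in QZ1-lo (SD, n = 4 each, log2 fold change -0.90, SE 0.19). The pioneer factor genes Foxa1 (-1.48) and Foxa2 (-0.99), the ETS genes Elf3 (-1.20) and Ehf (-0.83), Klf5 (-1.33) and Grhl2 (-0.84) were called too, and the size of the change of Sox2 was above that of each of them.

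Sox9, the SoxE member (chr11:112782224-112787760, plus strand), is known from distal lung progenitors and cartilage. It measured 23.1, 15.6, 8.67 and 6.08 CPM in QZ1-hi and 15.5, 6.47, 4.78 and 4.83 CPM in QZ1-lo. The populations overlapped, and the spread within each was wide. The means were 13.4 ± 7.65 and 7.89 ± 5.13 CPM (SD, n = 4 each), and the log2 fold change of 0.76 did not pass (SE 0.47, edgeR adjusted p = 0.328).

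Relative to Epcam, the values of Sox9 did not overlap between the populations. The log2 ratio of Sox9 to Epcam was -1.74, -2.11, -2.38 and -2.88 in QZ1-hi and -3.18, -4.23, -5.00 and -4.56 in QZ1-lo. The difference of 1.96 (SE 0.46) had the smallest p possible (exact permutation p = 0.0286). After adjustment over the 9 ratios it did not pass (adjusted p = 0.0857), under the same limit as for Sox2. The fitted log2 fold changes behind it were 0.76 for Sox9 and -1.17 for Epcam. Of 7 listed genes of the distal lung tip, only Foxp1 was called (log2 fold change 0.64), and that call was lost when libraries were scaled by size only (0.21). Of 12 cartilage genes, 3 passed the filter and none was called, and Acan, the aggrecan gene, had no count in any library.

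The SoxC members Sox4 and Sox11 had unlike patterns, and neither passed the test. Sox4 (chr13:28948919-28953713, minus strand) measured 55.5, 46.8, 48.2 and 28.8 CPM in QZ1-hi and 48.5, 52.1, 55.3 and 31.1 CPM in QZ1-lo. The ranges nearly coincided. The means were 44.8 ± 11.3 and 46.8 ± 10.8 CPM (SD, n = 4 each), with a log2 fold change of -0.06 (SE 0.22, edgeR adjusted p = 0.897). A noncoding transcript on the opposite strand, Gm26735, overlaps 54.6% of the exon length of Sox4 and is not a row of the count table, so the level of Sox4 is uncertain where strand was not used.

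Sox11 (chr12:27334264-27342574, minus strand) measured 3.81, 3.65, 12.95 and 3.99 CPM in QZ1-hi and 0.507, 0.814, 3.18 and 0.164 CPM in QZ1-lo. The libraries did not overlap, with replicate 3 the highest of each population. The replicate numbers only name libraries, and no source used here pairs them across the populations. The lowest value stands for 4 counts. The summed levels of the endothelial, arterial, venous, lymphatic, general capillary, pericyte and fibroblast markers were also highest in replicate 3 of each population, and their part in the Sox11 values was not tested. In QZ1-lo replicates 2 and 3, Sox11 measured 0.814 and 3.18 CPM, the fibroblast sum was 245 and 252 CPM and the endothelial sum 119 and 291 CPM. The means were 6.10 ± 4.57 and 1.17 ± 1.37 CPM (SD, n = 4 each), and the log2 fold change of 2.38 (SE 0.77) narrowly missed the threshold (edgeR adjusted p = 0.0539). Sox11 was called with DESeq2's Wald test (adjusted p = 0.00673), with limma-voom (adjusted p = 0.0178) and without QZ1-lo replicate 3 (log2 fold change 3.61, edgeR adjusted p = 0.00489). Without QZ1-hi replicate 3, the highest library, the log2 fold change was 1.70 (edgeR adjusted p = 0.193), and it was not called in 10 of the 15 alternatives that tested it. The genes nearest to it in pattern were Lims2 (distance 0.93), Srpx2 (1.06) and P3h3 (1.09).

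The log2 ratio of Sox4 to Sox11 was 3.86, 3.67, 1.89 and 2.84 in QZ1-hi and 6.54, 5.97, 4.11 and 7.40 in QZ1-lo. The populations did not overlap, and the difference was -2.94 (SE 0.83, exact permutation p = 0.0286, adjusted p = 0.0857 over the 9 ratios). Of 3 listed SoxC target genes, Tubb3 and Tead2 were tested and neither was called.

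Among the SoxD members, Sox13 was called and Sox5 and Sox6 were not. Sox13, known from vessels and immune cells (chr1:133382303-133424377, minus strand), measured 32.5, 20.3, 45.6 and 21.04 CPM in QZ1-hi and 8.32, 14.5, 15.1 and 9.70 CPM in QZ1-lo. The lowest QZ1-hi library was above the highest QZ1-lo library. The means were 29.9 ± 11.9 and 11.9 ± 3.38 CPM (SD, n = 4 each), a 2.51-fold difference (log2 fold change 1.33, SE 0.29, edgeR adjusted p = 0.00805). Unlike the SoxF genes, Sox13 was not set apart in QZ1-lo replicate 3, which measured 15.1 CPM beside 14.5 CPM in replicate 2. Its nearest genes in pattern were Tmem252 (distance 0.44), Caskin2 (0.47) and Rgs12 (0.52).

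Sox5 and Sox6, which act with Sox9 in cartilage, were low. Sox5 (chr6:143828425-144781977, minus strand) measured 2.29, 3.26, 3.30 and 2.50 CPM in QZ1-hi and 2.59, 1.02, 1.16 and 1.43 CPM in QZ1-lo, where only QZ1-lo replicate 1 fell within the range of QZ1-hi. The log2 fold change was 0.86 (SE 0.42, edgeR adjusted p = 0.208). The antisense gene Sox5os1 overlaps 9.25% of the exon length of Sox5, which leaves its level uncertain without strand. Sox6 (chr7:115470872-116038796, minus strand) measured 2.16, 9.63, 4.63 and 2.74 CPM and 3.55, 6.63, 2.10 and 3.40 CPM, overlapping throughout, with a log2 fold change of 0.29 (SE 0.50, edgeR adjusted p = 0.766). The sign for Sox6 changed to -0.18 with scaling by library size only.

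**Figure D4:**
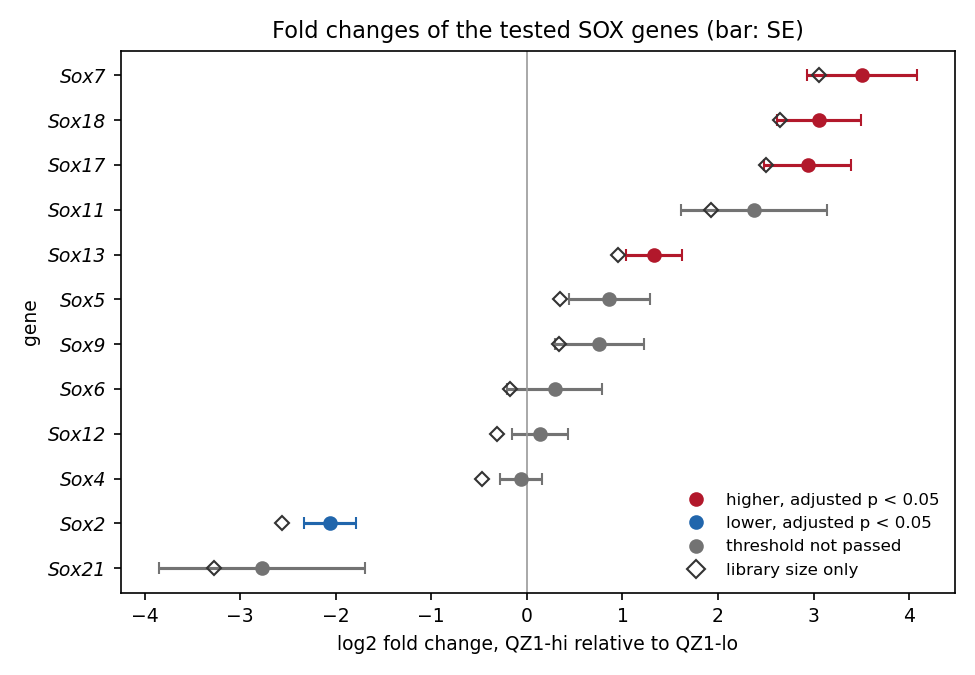
Log2 fold change of QZ1-hi relative to QZ1-lo for the 12 SOX genes tested, with bars of 1 SE. Red points were called higher, blue points lower and gray points did not pass, and open diamonds give the value with scaling by library size only. Sox7, Sox17 and Sox18 lie between 2.94 and 3.51, Sox13 at 1.33 and Sox2 at -2.06, and the diamonds lie to the left of the points throughout.

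The 10 other SOX genes of the mouse that were listed for comparison added no call in the edgeR test. Only Sox12 and Sox21 passed the filter on low counts. Sox12, the remaining SoxC gene, measured 12.2 ± 3.45 and 11.1 ± 4.35 CPM (SD, n = 4 each, edgeR adjusted p = 0.818). Sox21, a SoxB2 gene of airway epithelium, had 4, 13, 0 and 0 counts in QZ1-hi and 69, 53, 34 and 9 counts in QZ1-lo, and its log2 fold change of -2.77 did not pass (SE 1.08, edgeR adjusted p = 0.108). Sox21 was called with DESeq2's Wald test (adjusted p = 0.0437), with scaling by library size only (log2 fold change -3.27, edgeR adjusted p = 0.021) and without QZ1-hi replicate 2 (-4.42, edgeR adjusted p = 0.033), and not in the other alternatives run. Sox8, a SoxE gene, had 14, 26, 27 and 7 counts in QZ1-hi and 0, 10, 1 and 0 counts in QZ1-lo, and did not pass in a fit without the filter (edgeR adjusted p = 0.161). Sox3 and Sox14 had no count in any library, where 3 counts would be 0.0894 to 0.179 CPM. These floors cover counting error only.

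Levels were compared between genes as CPM per kilobase of exon. Exon length covered every annotated exon of a gene: 14376 bases for Sox5, 14832 for Sox6 and 1620 for Sox18. The annotation used for counting is not given, so the places of Sox5 and Sox6 depend on this length. Before division, Sox6 averaged 4.79 CPM and Sox2 3.10 CPM in QZ1-hi. In QZ1-hi the order was Sox18 (13.5), Sox4 (9.35), Sox7 (7.69), Sox13 (6.93), Sox17 (4.40), Sox9 (3.23), Sox2 (1.51), Sox11 (0.734), Sox6 (0.323) and Sox5 (0.197). The ranges of neighbours in this order overlapped at every step. In QZ1-lo the order was Sox4 (9.75), Sox2 (6.30), Sox13 (2.76), Sox9 (1.91), Sox18 (1.62), Sox7 (0.674), Sox17 (0.574), Sox6 (0.264), Sox11 (0.140) and Sox5 (0.108), and of the neighbours only Sox2 and Sox13 had separate ranges. The place of Sox4 in both orders is uncertain, since Gm26735 overlaps 54.6% of its exon length.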

How the data were processed

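The authors sorted the cells, prepared libraries with a SMARTer stranded total RNA kit, ran them on a NextSeq500 sequencer and made gene-level counts with Rsubread in R (v4). The submitters' processing notes name the genome build mm10 and DESeq2. The aligner, annotation and strand setting are not given in the sources used here. The deposited values are raw counts per Entrez gene, whole numbers without normalization, for 27179 genes in 8 libraries, of which 25275 were given a symbol. Groups were taken from the sample labels. The labels call the libraries biological replicates and do not tie them to mice.

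The test of QZ1-hi against QZ1-lo used edgeR 4.0.16 in R 4.3.3 (TMM, filterByExpr with a minimum count of 10 and a minimum total of 15, quasi-likelihood test, no covariate), with Benjamini-Hochberg adjustment over 15583 genes and a threshold of 0.05. SEs of log2 fold changes were derived from the F statistic (absolute change over root F). Ratios were log2((count + 0.5)/(count + 0.5)) within a library, compared by exact two-sided permutation tests over 70 assignments. CPM per kilobase used GENCODE M21 exon lengths. The procedure was tested on simulated data. It recovered 37.4% of changes of 2-fold and 75.8% of changes of 4-fold. A gene that did not pass may therefore still differ.

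The members, gene lists and tests were chosen with earlier results of these data known. The text names all members, Cdh5 and Epcam, genes of the listed groups, and the 3 genes nearest in pattern to members that were called or whose libraries did not overlap. Alternatives were DESeq2 1.42.0, limma-voom 3.58.1 with quality weights per sample, edgeR with DESeq2's size factors, scaling by library size only, removal of mitochondrial and ribosomal RNA genes, other filters, robust shrinkage, an adjusted p under 0.01, a pseudocount of 2 for ratios, and each library left out in turn.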

Additional observations from a re-analysis of the deposited data

Results flagged for a closer look

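In 5 of 42 groups of 4 libraries, 1 library lay far from the rest by Dixon's criterion. Chance meets it in about 1 in 20 groups of independent, normally distributed values. The groups here share genes and include untransformed CPM, so that rate is only a guide. The level of Sox7 was 5.65 CPM in QZ1-lo replicate 3, while the other libraries of QZ1-lo lay between 0.936 and 1.27 CPM. The level of Sox9 was 15.5 CPM in QZ1-lo replicate 1, against 4.78 to 6.47 CPM in the others. Sox11 measured 12.95 CPM in QZ1-hi replicate 3, against 3.65 to 3.99 CPM in the others. The log2 ratio of Sox7 to Cdh5 was -3.36 in QZ1-hi replicate 4, against -3.95 to -3.86. The log2 ratio of Sox2 to Epcam was -5.09 in QZ1-hi replicate 1, against -4.06 to -3.87. The causes were not tested.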

How the results depend on the processing

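Sox2, Sox7, Sox13, Sox17 and Sox18 kept their direction and their call under all 16 alternatives run. Sox11 was called in 5 of the 15 alternatives that tested it, with adjusted p from 0.00489 to 0.193 over tools and settings, and had too few counts to be tested with at least 10 counts in every library. Of 159 values of members under an alternative, 150 kept direction and side of the threshold, 5 gained the call and 4 changed sign. With scaling by library size only, the median log2 fold change over all genes moved to -0.44, 882 genes were called higher and 2509 lower, Sox6 (-0.18), Sox12 (-0.31) and Rbpj (-0.17) changed sign, and Fli1, Ets1, Nr2f2 and Notch1 lost their calls. With an adjusted p under 0.01, 902 genes were called higher and 665 lower. Leaving out single libraries gave Sox4 from -0.21 to 0.13 (0.031 without QZ1-lo replicate 3), Sox6 from -0.33 to 0.67 and Sox12 from -0.042 to 0.42 (-0.035 without QZ1-hi replicate 1), and 1136 to 1506 genes higher and 938 to 1201 lower. The ratio of Sox7 to Cdh5 ranged from -0.079 to 0.37 and that of Sox18 to Sox17 from -0.20 to 0.56. With 3 against 4 libraries the smallest exact permutation p is 0.0571, so ratios with a library left out had no usable test. Fli1 also lost its call without QZ1-hi replicate 3. No paired analysis was possible because neither the labels nor the study's methods say which libraries of the populations share a mouse. The replicate numbers used here follow the order of the samples and only name them. The tests treated the libraries as independent, and whether some share a mouse is not known. With 4 counts, as for Sox11 in QZ1-lo replicate 4, depth limits precision.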
